A study of Mus musculus with 4 samples.

Results

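The cyclin-dependent kinase (CDK) inhibitors are 7 mouse genes, Cdkn1a, Cdkn1b, Cdkn1c, Cdkn2a, Cdkn2b, Cdkn2c and Cdkn2d. They were found by their symbols among the 52636 gene rows of the count matrices, and each symbol matched a single row. The matrices come from single cells of mouse kidney glomeruli, the capillary tufts in which blood is filtered, in 2 libraries from young and 2 from aged animals, none of them treated. Glomeruli were held on a magnet after perfusion of the animals with beads and were digested to single cells. Age in months, sex, strain, genotype and the number of mice behind a library are not given in the labels. Nothing states that replicate libraries came from separate animals, so p-values measure the spread between these libraries, which may be technical.

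CDK inhibitors are small proteins that bind cyclin-dependent kinases and hold a cell in G1 phase. The Cip/Kip members p21 (Cdkn1a), p27 (Cdkn1b) and p57 (Cdkn1c) bind several cyclin-CDK complexes, while the INK4 members p16 (Cdkn2a), p15 (Cdkn2b), p18 (Cdkn2c) and p19 (Cdkn2d) bind CDK4 and CDK6, the partners of D-type cyclins. Cdkn2a also encodes ARF, a different protein that restrains Mdm2 and so spares p53. In the kidney p57 is known as a marker of mature podocytes, the epithelial cells that wrap the capillaries, and p16 and p21 are widely used markers of cellular senescence, a theme that the series names.

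Of the INK4 genes, 3 lie on chromosome 4. In GRCm38 coordinates Cdkn2a spans 89274471 to 89294653 and Cdkn2b 89306299 to 89311039, both on the minus strand and 11645 bases apart, and Cdkn2c lies at 109660876 to 109667189. Cdkn2d is on chromosome 9 at 21288410 to 21291407, Cdkn1a on chromosome 17 at 29090976 to 29100727, Cdkn1b on chromosome 6 at 134920401 to 134925513 and Cdkn1c on chromosome 7 at 143458339 to 143461050. An annotated gene on the opposite strand overlaps Cdkn1a and Cdkn1c. The sources do not state whether strand was used in counting, so reads of those neighbours could be part of the counts. The 2 annotated transcripts of Cdkn2a start in different first exons and share 575 exonic bases, including the whole of exon 2 and most of the last exon. Counts of 3' ends therefore do not separate p16 from ARF, and Cdkn2a below means both.

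The sequences before the 3 starts of the Cdkn2a and Cdkn2b locus are shown because these were the members called in mesangial-like cells. Each run covers 216 bases, from 250 to 35 bases before the RefSeq start, 5′ to 3′ on the minus strand of GRCm38.p6, with any GC box (GGGCGG on either strand, the site of Sp1-type factors) in capitals.
Cdkn2a, ARF first exon, chr4:89294654-89294869: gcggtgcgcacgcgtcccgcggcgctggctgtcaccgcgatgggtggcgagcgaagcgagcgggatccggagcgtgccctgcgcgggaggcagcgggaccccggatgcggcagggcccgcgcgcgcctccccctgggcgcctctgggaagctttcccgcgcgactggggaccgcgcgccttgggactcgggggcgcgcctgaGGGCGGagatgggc
Cdkn2a, p16 first exon, chr4:89282227-89282442: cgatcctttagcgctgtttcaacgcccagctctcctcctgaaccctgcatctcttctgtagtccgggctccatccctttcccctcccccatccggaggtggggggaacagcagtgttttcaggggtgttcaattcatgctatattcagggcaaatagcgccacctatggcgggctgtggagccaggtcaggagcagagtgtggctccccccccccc
Cdkn2b, chr4:89311067-89311282: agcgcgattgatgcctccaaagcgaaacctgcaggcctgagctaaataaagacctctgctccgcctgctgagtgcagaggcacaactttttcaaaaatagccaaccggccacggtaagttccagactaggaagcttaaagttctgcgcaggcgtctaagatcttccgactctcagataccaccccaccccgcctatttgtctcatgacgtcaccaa
The window before the ARF exon had 78.7% G and C, with 35 CpG and 1 GC box. The p16 window had 59.7% with 7 CpG and the Cdkn2b window 51.9% with 11 CpG, and neither holds that letter string. Over 32851 RefSeq promoters cut to the same window, the median was 51.9% and 5.0 CpG, and 27.9% held a GC box. The other motifs searched on both strands were the AP-1 site TGANTCA, the E-box letters CACGTG, the TATA box letters TATAAA and the ETS core letters CCGGAA. None matched the 3 windows. They were found, in that order, in 5.99%, 4.89%, 9.80% and 9.21% of all promoters.

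The matrices held from 18457791 to 42046542 UMIs (unique molecular identifiers, counted RNA molecules) per library, and 5035 and 6976 young and 9187 and 6802 aged cells passed the filters. Young replicate 2 stood apart, with a median of 1258 UMIs per cell against 2715 to 3730 in the others and with 4048 cells in clusters that were left unnamed. Classes were named from marker genes, with the 7 CDK inhibitors kept out of the clustering. Podocyte-like cells numbered 1768 and 582 in young and 992 and 661 in aged libraries. Endothelial-like cells numbered 2334 and 1308 against 5791 and 3928, and mesangial-like cells, the contractile cells between the capillaries, 340 and 223 against 699 and 556. Between libraries 5 to 21 cell barcodes were shared.

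Over all UMIs of a library, before any class was drawn, Cdkn2a was counted 5 and 11 times in young and 212 and 301 times in aged libraries. Cdkn2b was counted 20 and 29 times against 131 and 121. These are the rarest members. Cdkn2c had 178 in each young library against 413 and 545, Cdkn2d 1308 and 1223 against 2472 and 2168, and Cdkn1b 2118 and 2000 against 3497 and 3681. The most abundant member was Cdkn1c, with 75037 and 49453 young and 57765 and 55641 aged UMIs. Cdkn1a had 17214 and 14722 against 60826 and 52586. The totals move with the depth of a library, which was 22398650 and 18457791 UMIs in young against 41697199 and 42046542 in aged libraries. They also move with its share of each cell class. The classes are therefore described next, in CPM, the counts-per-million unit that scales a gene's UMIs to all UMIs of the class.

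**Figure D1:**
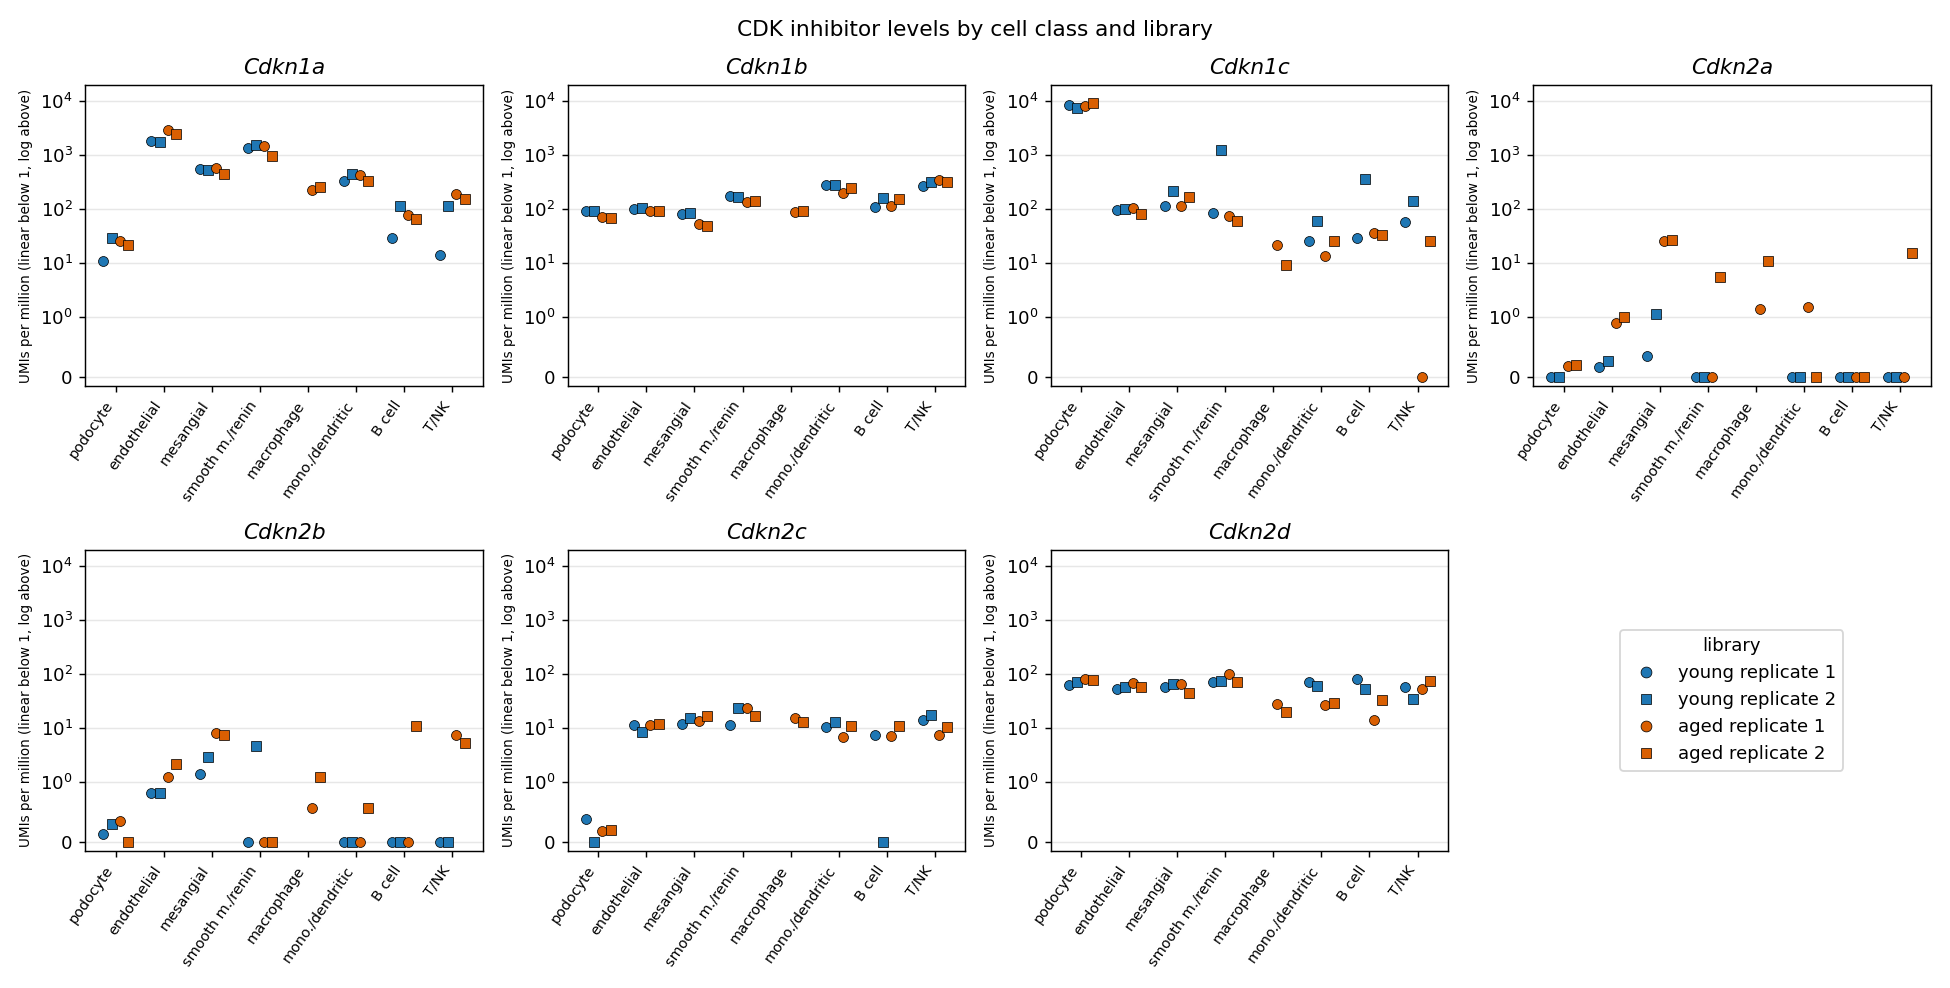
Level of each CDK inhibitor (vertical axes, CPM, linear below 1 and logarithmic above) in 8 cell classes, one point per library with at least 20 cells of the class. Cdkn1c stands at 7477 or more in podocyte-like cells of every library, and Cdkn2a lies near 25 in mesangial-like cells of the aged libraries.

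Cdkn1c, which encodes p57, marked the podocytes. Its level in podocyte-like cells was 8609 and 7477 CPM in young libraries and 8254 and 9076 in aged ones. After each cell was thinned to 1000 UMIs, to make depths equal, 98.0% to 98.8% of podocyte-like cells had a Cdkn1c UMI, against 8.14% to 9.92% of endothelial-like and 2.06% to 9.68% of B-cell-like cells. B cells are not known for p57, and their share is given for comparison only, since background RNA was not measured. Their median depths were 1210.5 to 1727 UMIs per cell against 4197 to 7694 in podocyte-like cells. Endothelial-like cells had 80.8 to 104 CPM. In mesangial-like cells the level was 115 and 217 against 116 and 165 CPM. Young replicate 2 was high in several other classes. Its smooth muscle and renin-like cells had 1230 CPM against 60.1 to 86.2 in the other 3 libraries, and its B-cell-like cells 363 against 29.0 to 35.4. The part of free podocyte RNA in these values was not tested.

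Cdkn1c did not pass the test of age in any glomerular class. In podocyte-like cells, normalised levels (scaled by edgeR's TMM factors) were 8675 and 7174 in young and 8326 and 9423 CPM in aged libraries. The groups overlap, with a log2 fold change of 0.16 (SE 0.16, adjusted p = 0.72 by edgeR's quasi-likelihood test). In mesangial-like cells the change was -0.08 (SE 0.24, adjusted p = 0.89). That value rests on the clustering, since it became -1.40 with adjusted p = 0.011 at clustering resolution 2 and -1.29 with adjusted p = 0.0018 without doublet removal. The other genes of its imprinted cluster, a region in which 1 parental copy is silenced, were measured too. In podocyte-like cells 1 of the 5 tested genes, Cars, rose, from 4.80 and 3.50 to 10.52 and 9.31 normalised CPM (log2 fold change 1.19, adjusted p = 0.014). None of 8 passed in endothelial-like and none of 5 in mesangial-like cells by edgeR, with 1 in each at an unadjusted p under 0.05. Over all genes 5.23% were called in podocyte-like, 6.40% in endothelial-like and 8.55% in mesangial-like cells.

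Cdkn1a, which encodes p21, was highest in endothelial-like cells, at 1859 and 1736 CPM in young libraries and 2868 and 2499 in aged ones. Smooth muscle and renin-like cells came next, with 1379 and 1543 against 1463 and 972, then mesangial-like cells with 546 and 535 against 582 and 447. Monocyte and dendritic-like cells had 336 and 441 against 432 and 332, so the ranges of these 4 classes do not overlap, the closest neighbours being mesangial-like cells at 447 and monocyte and dendritic-like cells at 441. Macrophage-like cells of the aged libraries had 226 and 253. Podocyte-like cells had the least, 11.1 and 28.9 against 26.0 and 21.7. After thinning, 72.3% to 82.6% of endothelial-like cells had a Cdkn1a UMI, against 0.74% to 2.65% of podocyte-like cells.

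In endothelial-like cells Cdkn1a rose with age. Normalised levels were 1847 and 1609 CPM in young and 2997 and 2618 in aged libraries, so both aged libraries lie above both young ones, and groups did not overlap for 49.7% of genes in these cells. The log2 fold change was 0.70 (SE 0.18, adjusted p = 0.022). It was the only member called there among the 6 tested, against 6.40% of the 12939 genes tested in these cells. Its call was lost without young replicate 2 (adjusted p = 0.065), aged replicate 1 (0.37) or aged replicate 2 (0.097), with changes of 0.61, 0.60 and 0.80. The endothelial-like cells of young and aged libraries were spread differently over clusters: cluster 0, with Sele, Plaur and Il6 among its leading genes, held 160 and 88 young and 2487 and 1249 aged cells. Markers of other cells moved in the same sums. The 8 mesangial markers summed to 38.7 and 65.1 CPM in young against 105.6 and 114 in aged libraries, and the 7 macrophage markers to 1.97 and 5.17 against 15.7 and 18.8. The 8 parietal epithelial markers summed to 390 and 379 against 721 and 501. Of them 2 and 5 were detected in young and 8 and 5 in aged libraries, and this list was treated as shared with mesangial and tubule cells. The 8 endothelial markers were at 13158 and 13432 against 12253 and 11107. The part of these differences in the Cdkn1a values was not tested.

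Within single endothelial clusters, which were tested after the data had been seen, Cdkn1a changes ran from 0.06 to 0.67 on the log2 scale. In cluster 7, led by the imprinted non-coding RNAs Meg3 and Rian, Cdkn1a went from 2013 and 1838 to 3185 and 2956 normalised CPM (log2 fold change 0.67, SE 0.16, adjusted p = 0.034). That call stands against 2.44% of the genes tested in the cluster. In cluster 0 it was 2431 and 2405 against 3597 and 3284 (0.51, adjusted p = 0.18). In cluster 2, led by Ier5l, Cyp26b1 and Id1, it was 1570 and 1350 against 2396 and 2254 (0.67, adjusted p = 0.079). In cluster 1, with the capillary genes Kdr, Ehd3 and Emcn among its leading genes, it was 1945 and 1625 against 1856 and 1870 (0.06, SE 0.19, adjusted p = 0.96). Of these genes, Kdr and Ehd3 were also among the leading genes of cluster 2, and Kdr and Emcn among those of cluster 7. The aged values thus lie above the young ones in clusters 0, 2 and 7, and within the young range in cluster 1. The share of genes without overlap was not counted within single clusters, and it was 49.7% in all endothelial-like cells. Clusters 6, 9 and 21 gave 0.50, 0.39 and 0.53 and did not pass. In clusters 0, 1, 2, 6, 9 and 21 the share of genes called was 0.851%, 3.15%, 1.54%, 3.08%, 1.20% and 0.594%. Whether the change differs between clusters was not tested.

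**Figure D2:**
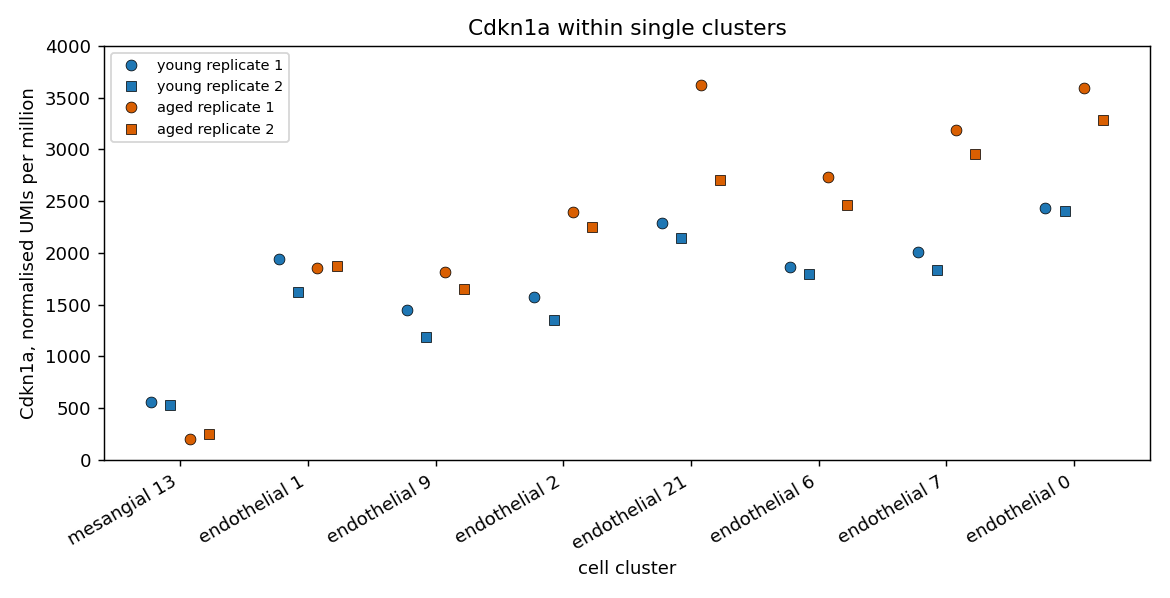
Cdkn1a (vertical axis, normalised CPM, from 0) in 1 mesangial and 7 endothelial clusters with at least 20 cells in every library, one point per library. Aged libraries lie above young ones in all endothelial clusters shown except cluster 1, and below them in mesangial cluster 13. Groups did not overlap for 49.7% of genes in all endothelial-like and 54.6% in all mesangial-like cells.

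In mesangial-like cells Cdkn1a did not pass the test of age. Normalised levels were 528 and 504 CPM in young and 633 and 461 in aged libraries, and the groups overlap (log2 fold change 0.08, SE 0.17, adjusted p = 0.83). The age difference in mesangial-like cells was lower than in endothelial-like cells by 0.65 on the log2 scale (difference -0.65, SE 0.13, adjusted p = 0.0063). It was the only difference called of 19 tested over 3 pairs of classes. Of all genes 4.31% were called for this pair, 4.28% for endothelial-like against podocyte-like and 2.62% for mesangial-like against podocyte-like cells. The call was lost without young replicate 1 (-0.70, adjusted p = 0.080), without young replicate 2 (-0.55, adjusted p = 0.24) and without doublet removal (-0.50, adjusted p = 0.062). Within mesangial cluster 13 Cdkn1a fell, from 555 and 530 to 202.1 and 252 normalised CPM (log2 fold change -1.28, SE 0.23, adjusted p = 6.0e-04). This is 1 of 2 members called in that cluster against 1.61% of its genes, and it rests on 32 and 21 aged cells. The other was Cdkn1c, at 115 and 214 against 41.8 and 65.4 (-1.63, adjusted p = 0.046).

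In podocyte-like cells none of the 4 tested members passed by edgeR, and none by DESeq2, against 5.23% of genes. At an unadjusted p under 0.05 there were 2. Cdkn1b was 91.3 and 88.8 against 71.5 and 69.8 normalised CPM (log2 fold change -0.35, adjusted p = 0.15), and Cdkn2d 63.6 and 66.6 against 82.5 and 79.5 (0.32, adjusted p = 0.22). Neither pair of groups overlaps, which also held for 45.6% of all genes tested in these cells. Cdkn1a was 11.2 and 27.7 against 26.2 and 22.6, and young replicate 1 alone is low. The 8 endothelial markers in the same cells summed to 39.3 and 145 CPM in young and 102 and 80.1 in aged libraries, in the same order as Cdkn1a, and their part in its values was not tested. Without young replicate 2 its change was 1.12 (adjusted p = 0.024), and without young replicate 1 it was -0.18.

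Cdkn1b, which encodes p27, a brake typical of resting cells, was the most even of the Cip/Kip genes. T and NK-like cells had the highest levels, at 271 and 323 against 352 and 319 CPM, followed by monocyte and dendritic-like cells with 275 and 276 against 197 and 247. Podocyte-like, endothelial-like and mesangial-like cells lay between 49.6 and 107 CPM. In mesangial-like cells normalised levels were 76.9 and 80.7 in young and 58.6 and 51.1 in aged libraries. Both aged libraries lie below both young ones, as a difference in either direction did for 54.6% of genes in these cells, and the change of -0.52 (SE 0.15) had an adjusted p of 0.059. It passed without aged replicate 1 (-0.62, adjusted p = 0.0061), with the members among the clustering genes (-0.55, adjusted p = 0.044) and with the replicate number as a block (adjusted p = 0.028). In cluster 13 alone it was 0.09. In endothelial-like cells the change was -0.07 (adjusted p = 0.84).

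**Figure D3:**
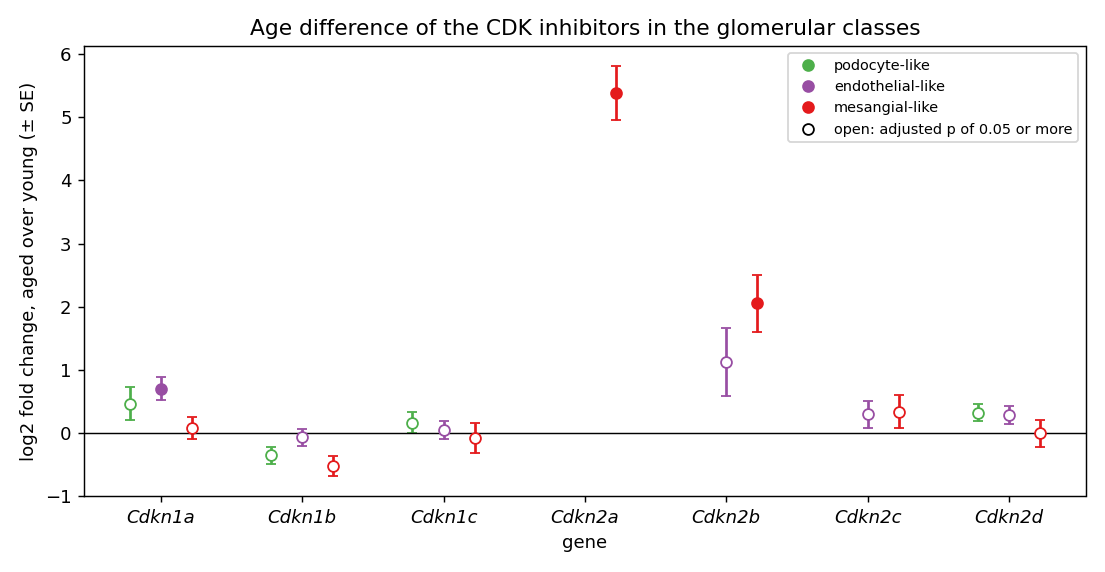
Log2 fold change of aged over young libraries (vertical axis, bars show the SE) for each CDK inhibitor that passed the count filter in podocyte-like, endothelial-like and mesangial-like cells, with 2 libraries in each age group. Filled points have an adjusted p under 0.05, and Cdkn2a and Cdkn2b in mesangial-like cells and Cdkn1a in endothelial-like cells are filled.

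Cdkn2a was rare in young glomeruli, and most of its UMIs in aged ones were in mesangial-like cells. There it was counted 1 and 2 times in young and 135 and 176 times in aged libraries. Normalised levels were 0.34 and 1.09 against 27.6 and 27.8 CPM. Both aged levels lie above both young ones, and groups did not overlap for 54.6% of genes in these cells. Cdkn2a rose with a log2 fold change of 5.38 (SE 0.43, adjusted p = 3.4e-05). The exact size is loose, because 3 young UMIs carry it, and the 95% Poisson intervals of the raw levels run to 1.98 and 4.18 CPM in young and start at 21.3 and 23.1 in aged libraries. Together with Cdkn2b, 2 of the 7 members tested in mesangial-like cells were called, against 8.55% of 11342 genes. Cdkn2a was called in each alternative that gave it a test (in cluster 13 alone it did not pass the count filter), and the largest adjusted p was 0.023, without young replicate 1.

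The cells that held these UMIs were a minority at this depth. Of aged mesangial-like cells, 12.3% and 17.6% had a Cdkn2a UMI, against 0.294% and 0.897% of young ones, at median depths of 4809 and 7604 against 5301 and 4062 UMIs per cell. After thinning to 1000 UMIs, with 2 shallower cells left out per library, the share was 13 of 697 cells (1.87%) and 10 of 554 (1.81%) in aged libraries. It was 0 of 338 and 0 of 221 in young ones, which allow shares of up to 0.888% and 1.36% from counting error alone. The Wilson 95% intervals of the aged shares are 1.09% to 3.16% and 0.983% to 3.29%. The exact two-sided permutation p was 0.33, the smallest that 2 against 2 libraries can give. At the same depth 0.04% and 0.13% of aged endothelial-like cells and none of the 991 and 659 aged podocyte-like cells had one, which allows 0.303% and 0.455%. In the aged mesangial-like cells 57 and 53 of the positive cells had a single UMI, and the highest count in 1 cell was 5 and 8.

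Aged and young mesangial-like cells fell into different clusters, so the comparison crosses clusters. Cluster 10, led by Cxcl13, Serpine2, Itga8 and Cxcl1, held 20 and 9 young against 667 and 535 aged cells. Cluster 13, led by Sfrp2, Itga8 and Gucy1a3, held 385 and 250 against 32 and 21, of which 320, 214, 32 and 21 were not mixed and entered the values. Cluster 25, 73 cells of aged replicate 2 alone with Cxcl13 and Serpine2 also among its leading genes, was left unnamed for a low marker level and had 2 Cdkn2a UMIs (2.28 CPM). In cluster 10 the aged levels of Cdkn2a were 25.6 and 27.1 CPM. In cluster 13 they were 19.9 and 17.97, from 3 and 2 UMIs, against 0.36 and 1.17 in its young cells. The 95% Poisson intervals of the aged values in cluster 13 start at 4.10 and 2.18, and those of the young values end at 2.02 and 4.23. Markers of other cells also differed: the 8 endothelial markers summed to 2211 and 2192 CPM in young and 1068 and 1241 in aged mesangial-like cells. The 6 smooth muscle and renin markers, of which 4 or 5 were detected, summed to 21.3 and 29.5 against 160 and 146. The 8 parietal epithelial markers, of which 4 or 5 were detected, summed to 523 and 542 against 2395 and 1373. The part of these differences in the results was not tested.

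**Figure D4:**
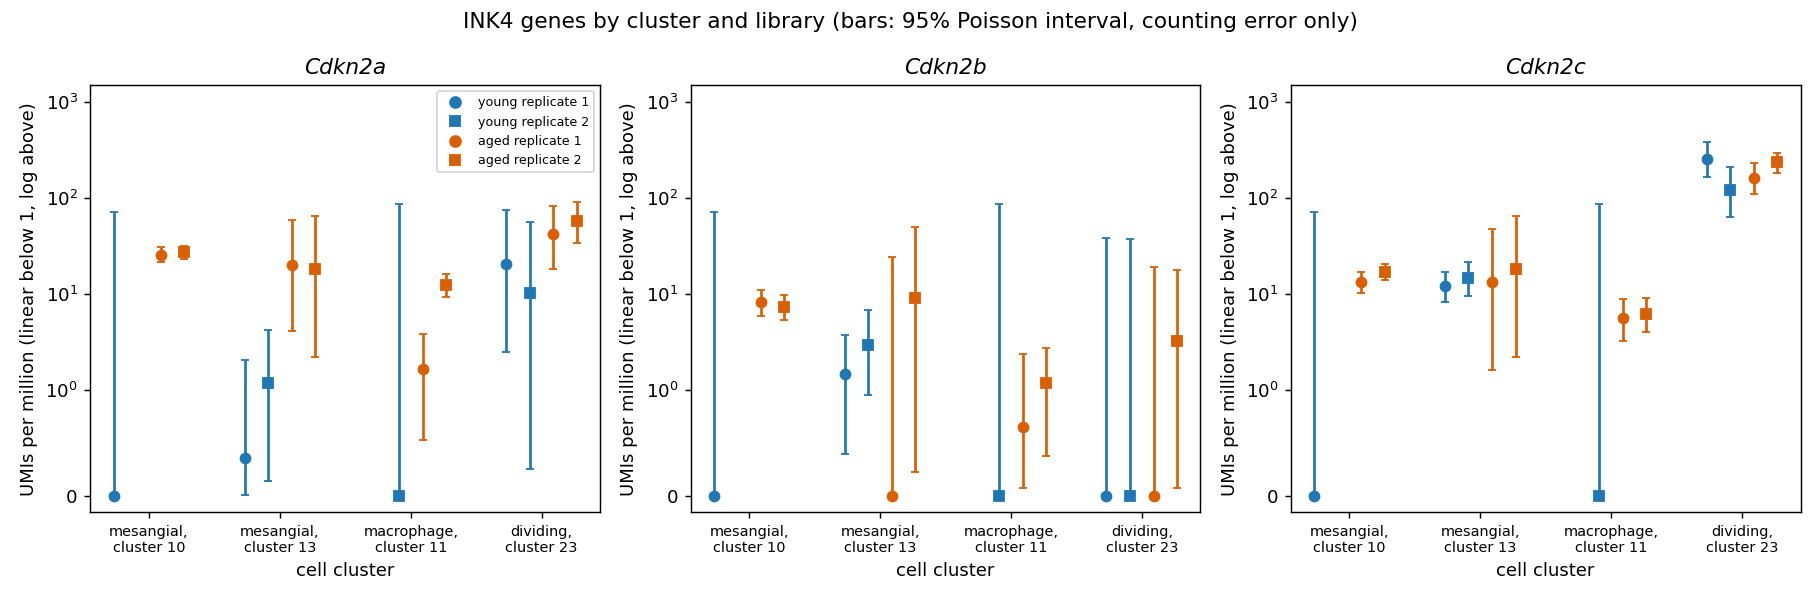
Cdkn2a, Cdkn2b and Cdkn2c (vertical axes, CPM, linear below 1 and logarithmic above) in 2 mesangial clusters, a macrophage cluster and the dividing cluster, one point per library with at least 10 cells and with 95% Poisson intervals. Aged libraries have the higher Cdkn2a in mesangial cluster 13, and Cdkn2c is above 100 only in the dividing cluster among those shown.

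Cdkn2b, the INK4 neighbour that encodes p15, rose in the same class. It was counted 4 and 5 times in young and 42 and 48 times in aged mesangial-like cells. Normalised levels were 1.37 and 2.73 against 8.60 and 7.57 CPM, and the groups do not overlap (log2 fold change 2.05, SE 0.46, adjusted p = 0.018). Lack of overlap held for 54.6% of genes in these cells. The call was lost with DESeq2 (2.08, adjusted p = 0.11), without young replicate 1 (1.55, adjusted p = 0.28) and without young replicate 2 (2.53, adjusted p = 0.14). The UMIs lay almost wholly in cluster 10 in aged libraries, with 42 and 47 of them, while cluster 13 had 0 and 1 in its 32 and 21 aged cells, so no change can be seen within it at this depth. In endothelial-like cells Cdkn2b was 0.81 and 0.76 against 1.29 and 2.22 normalised CPM (1.13, SE 0.54, adjusted p = 0.26). The highest raw levels outside the tuft core were in parietal epithelial-like cells, which line the outer capsule, with 14.3 and 24.4 against 38.1 and 25.3 CPM from 1 to 7 UMIs per library.

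Among unnamed cells, the dividing cells of cluster 23 had Cdkn2a at 41.6 and 57.7 CPM in aged libraries, from 8 and 18 UMIs, above the 25.4 and 26.9 CPM of aged mesangial-like cells. In the other glomerular classes Cdkn2a was sparse. Endothelial-like cells had 1 and 1 UMIs in young and 14 and 15 in aged libraries, 0.16 and 0.27 against 0.91 and 1.03 CPM, and the gene did not pass the count filter there. No endothelial-like cell had more than 1 UMI. Whether the age difference is larger in mesangial-like than in endothelial-like cells did not pass, at 3.14 on the log2 scale (SE 1.46, adjusted p = 0.30). Podocyte-like cells had 0 and 0 against 1 and 1. Among macrophage-like cells, which the young libraries hold only 3 and 11 of, the aged libraries differed from each other, with 5 UMIs in 575 cells against 54 in 492. In aged replicate 2 these 54 UMIs came from 15 cells, of which 10 had at least 3 and 6 had at least 5. The 7 macrophage markers summed to 21569 CPM in those 15 cells and to 16128 in the remaining 477. The 8 mesangial markers summed to 16.5 in the 15 cells, with 2 of 8 above 0, against 9821 in mesangial-like cells of that library.

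Cdkn2c, which encodes p18 and is known as an E2F target of dividing cells, was highest in the dividing clusters. In cluster 23, led by Cenpf, Prc1, Ube2c and Mki67, it reached 256 and 121 CPM in young and 161 and 234 in aged libraries, from 13, 17, 29 and 35 cells. In cluster 24, macrophage-like cells with Top2a and Mki67 among the leading genes, it was 77.5 and 53.5 in the aged libraries, against 5.53 and 6.13 in macrophage cluster 11. Cdkn2c was 8.44 to 12.0 in endothelial-like, 11.7 to 16.8 in mesangial-like and 0 to 0.39 in podocyte-like cells. Its age changes of 0.29 in endothelial-like (SE 0.22, adjusted p = 0.52) and 0.34 in mesangial-like cells (SE 0.26, adjusted p = 0.47) did not pass. Cdkn2d, which encodes the INK4 protein p19, was even, at 43.9 to 81.8 CPM over the 3 glomerular classes and all libraries. Its age change was 0.28 in endothelial-like (SE 0.14, adjusted p = 0.29) and -0.01 in mesangial-like cells (SE 0.21, adjusted p = 0.99). In monocyte and dendritic-like cells it was 70.8 and 60.3 in young against 26.9 and 29.5 CPM in aged libraries, with adjusted p = 0.078.

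Parietal epithelial-like cells numbered 15 and 16 young and 33 and 24 aged, so that the young libraries held fewer than the 20 required for a test. With cells named singly by their own markers, 23, 70, 71 and 60 cells were available, and the change of Cdkn1a there was 1.18 (SE 0.55, adjusted p = 0.38). Smooth muscle and renin-like, monocyte and dendritic-like, B-cell-like and T and NK-like cells were tested after their cell numbers had been seen. No member was called there by edgeR, against 0.280%, 1.80%, 0% and 0.171% of genes. At an unadjusted p under 0.05 there were 4 of the 12 member tests: Cdkn1c at -3.22 in smooth muscle and renin-like cells, Cdkn1c at -1.02 and Cdkn2d at -1.18 in monocyte and dendritic-like cells, and Cdkn1a at 1.19 in T and NK-like cells. The Cdkn1c value in smooth muscle and renin-like cells rests on young replicate 2, without which it was -0.30 (adjusted p = 0.91). With that library kept and any other one left out, which leaves 1 library in an age group, it lay between -4.08 and -3.04. Cdkn1c in B-cell-like cells did not pass the count filter with all libraries. It lay between -3.32 and -2.43 in each fit that left out a library other than young replicate 2. Without young replicate 2, which leaves young replicate 1 alone, the change of Cdkn2d in monocyte and dendritic-like cells was -1.34. That of Cdkn1a in T and NK-like cells was then 3.42. The young side of that value is 1 Cdkn1a UMI in 30 cells (14.3 CPM, under the limit of 3 counts at 42.8 CPM).

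Some of the genes around the inhibitors were called. D-type cyclins and their kinases are the direct partners of the INK4 proteins. Of 12 tested genes of G1 cyclins and kinases in mesangial-like cells, 2 rose and 1 fell, where 8.55% of all genes were called. Ccnd1 went from 253 and 229 to 378 and 453 normalised CPM (log2 fold change 0.78, adjusted p = 0.010). Ccnd3 went from 77.6 and 60.5 to 130 and 104 (0.75, adjusted p = 0.023). Ccnd2 fell from 245 and 234 to 122 and 142 (-0.86, adjusted p = 0.0046). It also fell in endothelial-like cells, from 476 and 439 to 294 and 295 (-0.64, adjusted p = 0.011). It was the only one called of 14 there, against 6.40% of all genes. The list's median log2 change was 0.19 in mesangial-like cells, where it was -0.01 over all genes tested. Without either young library, none of the 8 lists had a called gene in mesangial-like cells by edgeR.

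The targets of the kinases, the pocket proteins and E2F factors, gave no call in 16 endothelial, 14 mesangial and 15 podocyte genes tested by edgeR, with 1, 2 and 2 at an unadjusted p under 0.05. Of all genes 6.40% were called in endothelial-like, 8.55% in mesangial-like and 5.23% in podocyte-like cells. Proliferation genes gave 1 call of 12 in endothelial-like cells, Tyms, which makes thymidylate for DNA, from 17.1 and 12.4 to 28.9 and 23.9 normalised CPM (0.82, adjusted p = 0.011). They gave 1 of 11 in mesangial-like cells, Stmn1, a microtubule regulator, from 57.7 and 61.1 to 84.8 and 94.5 (0.60, adjusted p = 0.035), and none of 7 in podocyte-like cells, where 2 had an unadjusted p under 0.05. Polycomb genes, whose proteins keep the Cdkn2a locus silent in young dividing cells, gave 2 calls of 19 in endothelial-like cells. Ezh2 rose from 18.4 and 19.9 to 29.5 and 28.6 (0.61, adjusted p = 0.030) and Jarid2 fell from 54.3 and 60.6 to 40.5 and 39.9 (-0.51, adjusted p = 0.032). In mesangial-like cells Phc2 rose, from 58.7 and 64.9 to 102 and 86.9 (0.62, adjusted p = 0.035), as 1 of 18, and none of 17 passed in podocyte-like cells, with 2 at an unadjusted p under 0.05. In mesangial-like cells Bmi1 was 52.5 and 66.0 against 67.4 and 86.6 (0.39, adjusted p = 0.22). Of the neighbours of the Cdkn2a locus 3 were tested in each of podocyte-like, endothelial-like and mesangial-like cells. None was called by edgeR, with 0 at an unadjusted p under 0.05. Mtap was 110 and 124 against 135 and 118 in mesangial-like cells (0.12, adjusted p = 0.68).

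Known regulators of Cip/Kip genes and of Cdkn2b were a further list. In mesangial-like cells 3 of 19 rose and 2 fell, where 8.55% of all genes were called. The shares over all genes were 6.40% in endothelial-like and 5.23% in podocyte-like cells. Smad3, which carries the TGF-beta signal, rose from 21.6 and 33.8 to 81.7 and 53.0 normalised CPM (1.31, adjusted p = 0.0088). Myc, whose protein represses Cdkn1a and Cdkn2b with Zbtb17, rose from 4.12 and 7.09 to 27.6 and 19.4 (2.12, adjusted p = 0.0029). Gadd45a, a stress gene, also rose (0.83, adjusted p = 0.048). Id1 (-1.13, adjusted p = 0.0014) and Egr1 (-1.22, adjusted p = 0.0050) fell. In endothelial-like cells Klf6, Myc and Gadd45a rose, by 0.88, 1.96 and 0.65, with adjusted p of 0.0014, 0.0024 and 0.0054, and none of the other 16 was called. In podocyte-like cells Gadd45a and Gadd45b rose, by 0.68 and 0.98, and Klf4 fell, from 236 and 276 to 116 and 110 (-1.17). There Cdk6, a kinase partner of the INK4 proteins, rose from 13.6 and 20.4 to 31.9 and 24.2 (0.79, adjusted p = 0.022).

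Genes that are induced when tissue is digested moved with age too, in directions that differed by class. In endothelial-like cells, where Cdkn1a rose, 2 of 16 rose, Dusp1 from 913 and 768 to 1963 and 1770 (1.15, adjusted p = 3.1e-04) and Ier3 (0.90, adjusted p = 0.0034), and the list's median log2 change was 0.41 against -0.01 over all genes. In mesangial-like cells 4 of 16 fell, Btg2 (-1.13), Jun (-0.97), Atf3 (-0.70) and Nr4a1 (-0.52), with a median of -0.02. In podocyte-like cells Atf3, Hspa1a, Hspa1b and Ier3 rose and Dusp1 fell. The shares called over all genes were 6.40% in endothelial-like, 8.55% in mesangial-like and 5.23% in podocyte-like cells. The part of digestion in the Cdkn1a values was not tested.

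Across 37 sums of 11 classes and 4 libraries, the pattern of each member was compared with all genes of at least 100 UMIs by Pearson's r of log2(CPM + 1). These points share libraries and classes, so r is a description. The closest genes to Cdkn1a were Notch1 (r = 0.89), Clic4 (0.87) and Mef2a (0.86). For Cdkn1c they were Rab3b (0.92), Adcy1 (0.91) and Tdrd5 (0.91), of which Rab3b and Tdrd5 also lead podocyte clusters. Cdkn2a had weaker neighbours, Cxcl13 (0.66), Mmp3 (0.64) and Serpina3f (0.64), and Cxcl13 leads mesangial cluster 10. Cdkn2b was closest to Klf5 (0.77), Egfr (0.74) and Shisa4 (0.73). Cdkn2c was closest to Ezh2 (0.83), Mndal (0.80) and Ifi203 (0.80). Cdkn1b was closest to Itgb7 (0.80), Ppp2r5a (0.78) and Samhd1 (0.78), and Cdkn2d to Xpa (0.73), Syne1 (0.68) and Cep85l (0.67).

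Joint detection of members in single cells was compared with the product of their separate shares. After thinning to 1000 UMIs, 44 combinations of pair, class and library had at least 10 cells expected from the product of the shares, covering 7 pairs. Their median ratio of observed to expected cells was 1.00 and their range 0.683 to 1.55. The median was 1.005 in the 12 podocyte-like combinations, which covered 3 pairs, and 0.98 in the 24 endothelial-like ones. The 5 mesangial combinations ran from 0.796 to 1.39. In endothelial-like cells Cdkn1a and Cdkn1b shared 164, 94, 402 and 252 cells in young replicates 1 and 2 and aged replicates 1 and 2, against products of 171, 83.9, 395 and 254. Pairs with Cdkn1c in podocyte-like cells cannot be read this way, since nearly every such cell has Cdkn1c. They still enter the median over all 44 combinations. The number of members seen per thinned cell was not tested. At least 2 were seen in 13.7% and 17.7% of young and 17.3% and 13.7% of aged podocyte-like cells. Of mesangial-like cells, 56.5% and 47.1% of young and 55.1% and 59.6% of aged ones had none, so the groups overlap in both classes. By the mean number of members per cell they did not overlap in 3 others. This mean was 1.0039 and 0.971 in young against 1.087 and 1.0046 in aged endothelial-like cells, where the closest libraries were almost equal. It was 0.855 and 1.04 against 0.763 and 0.65 in smooth muscle and renin-like cells. In monocyte and dendritic-like cells it was 0.583 and 0.674 against 0.540 and 0.530. Groups did not overlap for 49.7%, 41.6% and 41.9% of genes in these classes, in that order. Those shares are for normalised levels of single genes, a different measure, so they give no background for the means. The means came from a single random thinning. Endothelial-like cells with none made up 19.3% and 22.3% in young against 13.3% and 18.6% in aged libraries. The share with none overlapped in smooth muscle and renin-like cells. The share with at least 2 overlapped in endothelial-like and in monocyte and dendritic-like cells.

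**Figure D5:**
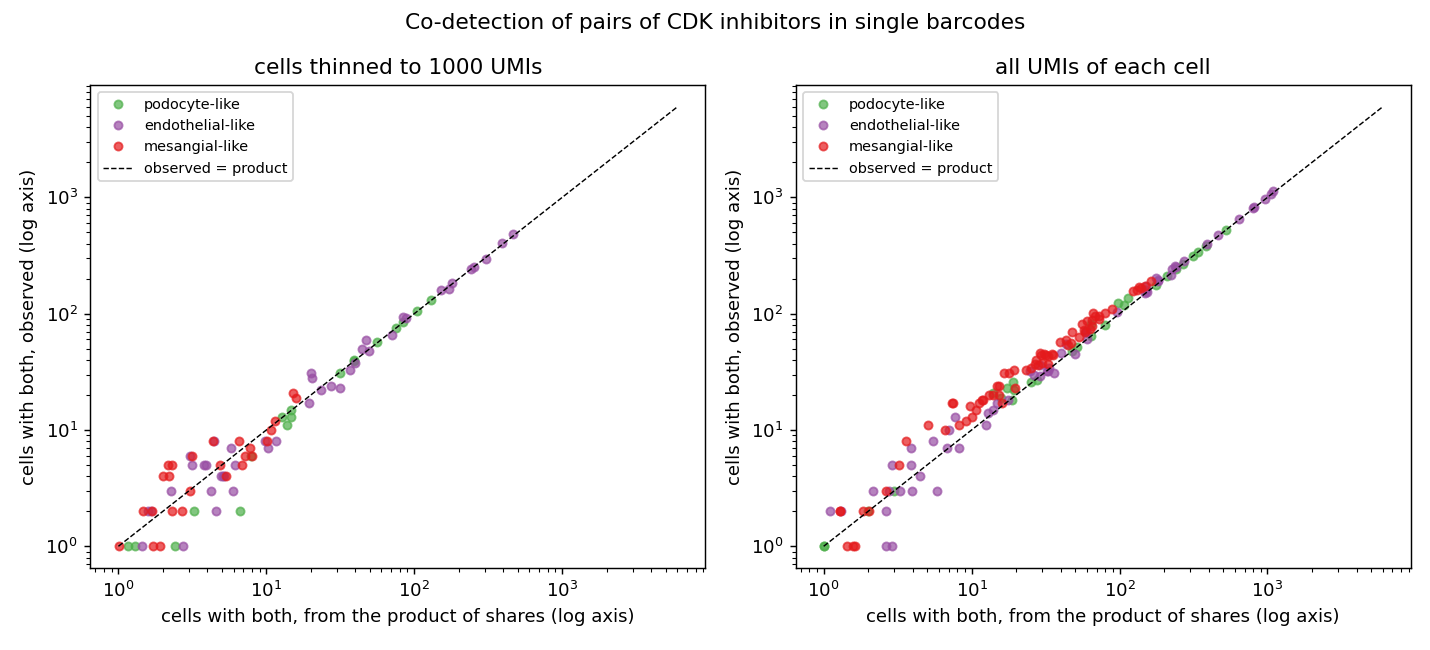
Cells with both members of a pair (vertical axes, log scale) against the number given by the product of their shares (horizontal axes, log scale), one point per pair, class and library with a product of at least 1 and at least 1 such cell. Points scatter on both sides of the dashed line of equality after thinning to 1000 UMIs, and most mesangial-like points lie above it when all UMIs are used.

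With all UMIs of each cell, where 150 combinations of 19 pairs could be used and cells differ in depth, the median was 1.16. It was 1.34 over 54 combinations in mesangial-like cells and 1.04 over 40 in endothelial-like cells. Cdkn2a and Cdkn2b were seen together in 11 of 699 and 17 of 556 aged mesangial-like cells, against products of 5.04 and 7.40, ratios of 2.18 and 2.30. Most of their cells held only 1 of the 2 genes, with 86 and 98 cells for Cdkn2a and 41 and 42 for Cdkn2b. When the deeper cells were thinned to 5000 UMIs, the pair was seen in 1 of 338 cells against a product of 0.85 in aged replicate 1 and in 5 of 357 against 1.30 in aged replicate 2. At that depth Cdkn1a and Cdkn2a gave 31 cells against 31.5 and 21 against 20.9. Cdkn1a was seen in 296 of the 338 and 241 of the 357 cells, and Cdkn2a in 36 and 31. The joint counts could thus not exceed 36 and 31. This leaves little room above the product in aged replicate 1, so the pair cannot be read there. Thinned to 1000 UMIs, no cell had both Cdkn2a and Cdkn2b, where 0.09 and 0.07 were expected, so joint detection of these genes could not be read at that depth.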

How the data were processed

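Single-cell 3' RNA libraries of glomeruli were measured, 2 young and 2 aged. The deposited matrices hold raw counts of UMIs per gene and barcode, with at least 500 UMIs per barcode. Cell Ranger 6.0.1 is given both in the submitters' processing notes, with GRCm38, and per the file headers, while the labels' protocol names another Cell Ranger version. Members, markers and gene lists were chosen with earlier results of these data known.

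Barcodes with at least 500 genes and at most 20% mitochondrial UMIs were kept. Scrublet (in scanpy 1.11.5) marked 133, 0, 1 and 0 barcodes by its automatic threshold, so the highest scores were removed at 0.8% per 1000 barcodes. Counts scaled to 10000 and log transformed, 2000 variable genes without the members, 30 components and 15 neighbours gave 31 clusters (leidenalg 0.10.2, resolution 1). Of these 24 were named, at a relative marker level of at least 0.35 with 3 markers detected and other classes below 0.3 of it. Cells with an unrelated class other than parietal epithelial at 0.5 of its median and at least 3 UMIs were left out as mixed. These thresholds were set after cell numbers were seen.

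UMIs summed per class and library (at least 20 cells) were tested, aged against young, with edgeR 4.0.16 in R 4.3.3 (quasi-likelihood F test, TMM, default filter, Benjamini-Hochberg over all genes, threshold 0.05). The SE is the absolute log2 change over the root of F. The test was checked on simulated counts. Intervals at 95% and limits of 3 counts cover counting error only. Differences between classes came from 1 model with libraries as blocks. Alternatives were DESeq2 1.42.0, RLE factors, no filter, a replicate block, left-out libraries and other clusterings. Each fit with a left-out library had 1 library in 1 of the age groups. Single clusters and thinning to 5000 UMIs were added after the data were seen. Named are all members, up to 4 called genes per list, class and direction, and the 3 genes closest in pattern to each member; Bmi1 and Mtap were named after their values were seen. Positions come from GENCODE vM21 (GRCm38) and upstream sequences from RefSeq (GRCm38.p6), which matched 6 of the 7 members.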

Additional observations from a re-analysis of the deposited data

Results flagged for a closer look

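The age difference of Cdkn1a differed between classes by an interaction test. It was lower in mesangial-like than in endothelial-like cells by 0.65 on the log2 scale (difference -0.65, SE 0.13, adjusted p = 0.0063 by edgeR, 2 young and 2 aged libraries), and the call was lost without either young library.

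Cdkn2a was also seen in cells that enter no comparison above, the unnamed dividing cells of cluster 23. They gave 2 and 1 UMIs in 13 and 17 young cells and 8 and 18 UMIs in 29 and 35 aged cells, which is 20.4 and 10.1 against 41.6 and 57.7 CPM. Both aged values lie above both young ones, but their 95% Poisson intervals overlap with the young ones and the difference was not tested. The share of genes without overlap was not counted in this cluster. By their own markers 22 and 28 of the aged cells were endothelial-like, with 5 and 14 of the UMIs, and 4 and 3 were mesangial-like, with 2 and 3.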

How the results depend on the processing

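Each call was recomputed with other tests, filters, clusterings and left-out libraries. In mesangial-like cells 2 members were called, 1 with DESeq2, and 1 to 3 when a library was left out. In endothelial-like cells the count of 1 became 0 to 1 without a library and 0 in clusters 0, 1, 2, 6, 9 and 21 alone. In podocyte-like cells it was 0, and 0 to 1 without a library. The count of differences between classes was 1, 0 to 2 without a library, 3 at resolution 2 and 2 without doublet removal, where Cdkn1c entered.
The aged minus young share of mesangial-like cells with a Cdkn2a UMI was 1.84 percentage points and became 4.48 with thinning to 2000 UMIs and 14.4 without thinning. It was 1.76 at resolution 0.5, 1.87 at resolution 2, 1.76 without doublet removal, 1.77 with cells named singly and 1.81 to 1.87 without a library. The median co-detection ratio of 1.00 became 1.16 without thinning and 1.03 in aged mesangial-like cells at 5000 UMIs. The medians of 1.00 and 1.16 include podocyte-like pairs with Cdkn1c, which cannot be read as joint detection. The median of 1.03 includes pairs with Cdkn1a, which most of those aged mesangial-like cells had.
Of all genes, 5.23% were called in podocyte-like, 6.40% in endothelial-like and 8.55% in mesangial-like cells. Called genes of the 8 lists numbered 10 in podocyte-like, 9 in endothelial-like and 14 in mesangial-like cells. Without a library these became 5 in each case, 5 to 6 and 0 to 25, and in endothelial-like cells 14 without a count filter.
Replicate numbers are shared between ages but name no common source. Same-numbered libraries correlated by 0.041, 0.095 and 0.096 in podocyte-like, endothelial-like and mesangial-like cells. A replicate block gave 0, 1 and 3 members called, with Cdkn1b added in mesangial-like cells, and 19 list genes in endothelial-like cells.
Directions turned only for values that had not passed in the main fits. Without a library the log2 fold change ran from -0.18 (without young replicate 1) to 1.12 for Cdkn1a in podocyte-like cells and from -0.13 to 0.22 for Cdkn1c in endothelial-like cells. In mesangial-like cells it ran from -0.17 to 0.30 for Cdkn1a, -0.47 to 0.41 for Cdkn1c and -0.35 to 0.29 for Cdkn2d, and Cdkn1c was 0.13 without aged replicate 1. With cells named singly it was -1.65 for Cdkn1a in podocyte-like and -1.27 for Cdkn1c in endothelial-like cells. Cdkn2d in mesangial-like cells was 0.032 with DESeq2, 0.0073 with RLE factors and 0.031 without a filter. In mesangial cluster 13 Cdkn1a was -1.28, Cdkn1b 0.094 and Cdkn2d 0.56, of which Cdkn1a passed there (adjusted p = 6.0e-04 by edgeR). In endothelial clusters 0, 1, 7 and 9 Cdkn1b was 0.038, 0.21, 0.052 and 0.10. In clusters 2, 6, 9 and 21 Cdkn1c was -0.10, -0.37, -4.6e-04 and -0.31, and in clusters 0 and 7 Cdkn2c was -0.56 and -0.039. The cause was not tested. Depth limits Cdkn2a and Cdkn2b, with 3 and 9 young mesangial UMIs. Alternatives for parietal epithelial-like cells gave no value except naming cells singly, because too few cells remained.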
